A study of Mus musculus with 18 samples.

Results

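Genes that mark the rarer endocrine cells of the pancreatic islet were followed in islets of obese and lean mice. The set of 7 genes was chosen by name: Sst, Hhex, Rbp4 and Ghsr for somatostatin-secreting delta cells, Ppy and Pyy for pancreatic polypeptide (PP) cells, and Ghrl for ghrelin-secreting epsilon cells. Each was read from its own transcript cluster on the array, the group of probes that is summarised into 1 log2 signal. All 7 had exactly 1 such cluster, out of 22180 genes with a cluster of their own, and all 7 passed the filter on dim genes that left 15526 genes for testing.

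The arrays carried RNA of handpicked islets from 8 groups of mice. Obese db/db mice on the C57BL/KsJ background, which lack the long form of the leptin receptor, were taken at 6 and 16 weeks of age and set against lean C57BL/KsJ controls (lean KsJ) of the same ages. Obese ob/ob mice on the C57BL/6J background, which lack leptin itself, were taken at 6 and 16 weeks and set against lean C57BL/6J controls (lean 6J) of the same ages. The series names the first model prone to diabetes and the second resistant to it, and asks which genes go with failure or compensation of the insulin-secreting beta cells. A table of 16 arrays held 2 arrays per group, and a separate table of 2 arrays held 1 further db/db array and 1 further lean KsJ array of 16 weeks, called replicate 3 here. Nothing in the labels tells whether replicate arrays stand for separate animals or pools, so p-values measure only the spread between these samples. The titles of the 16-array table have a code for KsJ samples that differs from that for 6J samples, and strain and whatever these codes stand for cannot be told apart. Leptin was not detected above the filter in islets, and the db mutation alters the splicing of the receptor, so neither gene's signal checks the genotype labels.

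Islets are mostly beta cells, with alpha cells next and delta, PP and epsilon cells as minorities. Somatostatin from delta cells acts on neighbouring cells and restrains the secretion of insulin and glucagon. Pancreatic polypeptide and peptide YY belong to 1 peptide family and act through Y receptors, and ghrelin is a peptide that acts through the growth hormone secretagogue receptor. In the islet that receptor, encoded by Ghsr, is found on delta cells, so that ghrelin stimulates somatostatin release. Hhex is the homeodomain transcription factor that delta cells need to form and to keep their identity, and Rbp4 encodes the retinol carrier of plasma, a marker of mouse delta cells.

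The promoters of 3 hormone genes are shown because Sst carries a well-known control element and because Ppy and Pyy are neighbours on chromosome 11 with 0 protein-coding genes between them. The 250 bases before the annotated start come from RefSeq for GRCm38.p6, a C57BL/6J assembly, all on the minus strand and written 5′ to 3′. They are chr16:23890845-23891094 for Sst, chr11:102101320-102101569 for Ppy and chr11:102107833-102108082 for Pyy. Capitals mark the cyclic AMP response element TGACGTCA, searched on both strands, and the TATA box TATAAA, searched on the gene's strand.
Sst: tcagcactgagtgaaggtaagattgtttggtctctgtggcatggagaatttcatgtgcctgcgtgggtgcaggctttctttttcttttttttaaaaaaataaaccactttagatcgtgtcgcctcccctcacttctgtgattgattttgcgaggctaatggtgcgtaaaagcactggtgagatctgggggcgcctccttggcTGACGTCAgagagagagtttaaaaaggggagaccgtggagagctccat
Ppy: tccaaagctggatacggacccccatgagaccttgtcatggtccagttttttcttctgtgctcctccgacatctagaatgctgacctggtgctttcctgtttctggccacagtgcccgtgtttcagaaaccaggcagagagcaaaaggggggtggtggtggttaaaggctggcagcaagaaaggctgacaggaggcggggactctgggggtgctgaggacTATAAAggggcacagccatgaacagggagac
Pyy: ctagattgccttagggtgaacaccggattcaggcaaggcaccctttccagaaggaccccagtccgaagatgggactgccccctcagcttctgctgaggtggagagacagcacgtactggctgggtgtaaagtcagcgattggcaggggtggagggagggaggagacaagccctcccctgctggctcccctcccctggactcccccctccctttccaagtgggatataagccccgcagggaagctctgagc
TGACGTCA begins 48 bases before the start of Sst, and 1.55% of 32851 promoters of this length hold it. TATAAA begins 31 bases before the start of Ppy and is in 7.59% of promoters. Neither set of letters is in the Pyy window shown. The homeodomain core TAAT, searched on both strands and found in 54.9% of promoters, is in the Sst window and not in those of Ppy and Pyy. These matches describe the reference sequence only, since the arrays say nothing of binding.

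Several arrays differed from the other array of their group in genes of neighbouring tissues. Genes of the acinar list, which encode digestive enzymes, averaged a log2 signal of 12.49 on lean KsJ 16-week replicate 2 and 9.86 on replicate 1. The mean of enterocyte genes was 9.29 on replicate 2 and 6.69 on replicate 1 of 16-week db/db islets, against 6.15 and 4.32 on lean KsJ replicates 2 and 1 of that age, while in 6-week lean 6J islets it was 11.02 on replicate 2 and 4.39 on replicate 1. Across the genes tested, replicate arrays had a Pearson correlation between 0.902 in 16-week lean KsJ islets and 0.989 in 16-week lean 6J islets. The Y-linked gene Uty lay between 7.25 and 7.86 on 5 arrays and at or below 3.60 on the other 11, so arrays of both sexes were present. No 16-week ob/ob or lean 6J array was among the 5. At 6 weeks Uty differed by 2.50 for ob/ob minus lean 6J islets and by -1.45 for db/db minus lean KsJ islets. The female-expressed gene Xist differed by -3.73 and 2.59 in the same comparisons. Neither gene was called, but the mix of sexes may differ between these groups. Apart from a setting with Xist as covariate, the part of sex in the member values was not tested.

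The 3 abundant hormones stood close to the top of the array scale in every group. Across the 16 arrays Sst spanned only 0.47 on the log2 scale, between 12.97 and 13.44, and on 3 arrays, all of 6 weeks, it was the highest of all clusters. Ppy spanned 0.85, between 12.28 and 13.12, and Pyy spanned 0.80, between 11.88 and 12.68. Array signals flatten near their maximum, which was 13.61 over the 16 arrays, so differences in these genes may be understated; the size of that effect was not tested. The other members had more room: Rbp4 ran from 8.03 to 9.83, Hhex from 4.65 to 6.05, Ghsr from 4.66 to 6.67 and Ghrl from 2.84 to 7.17.

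**Figure D1:**
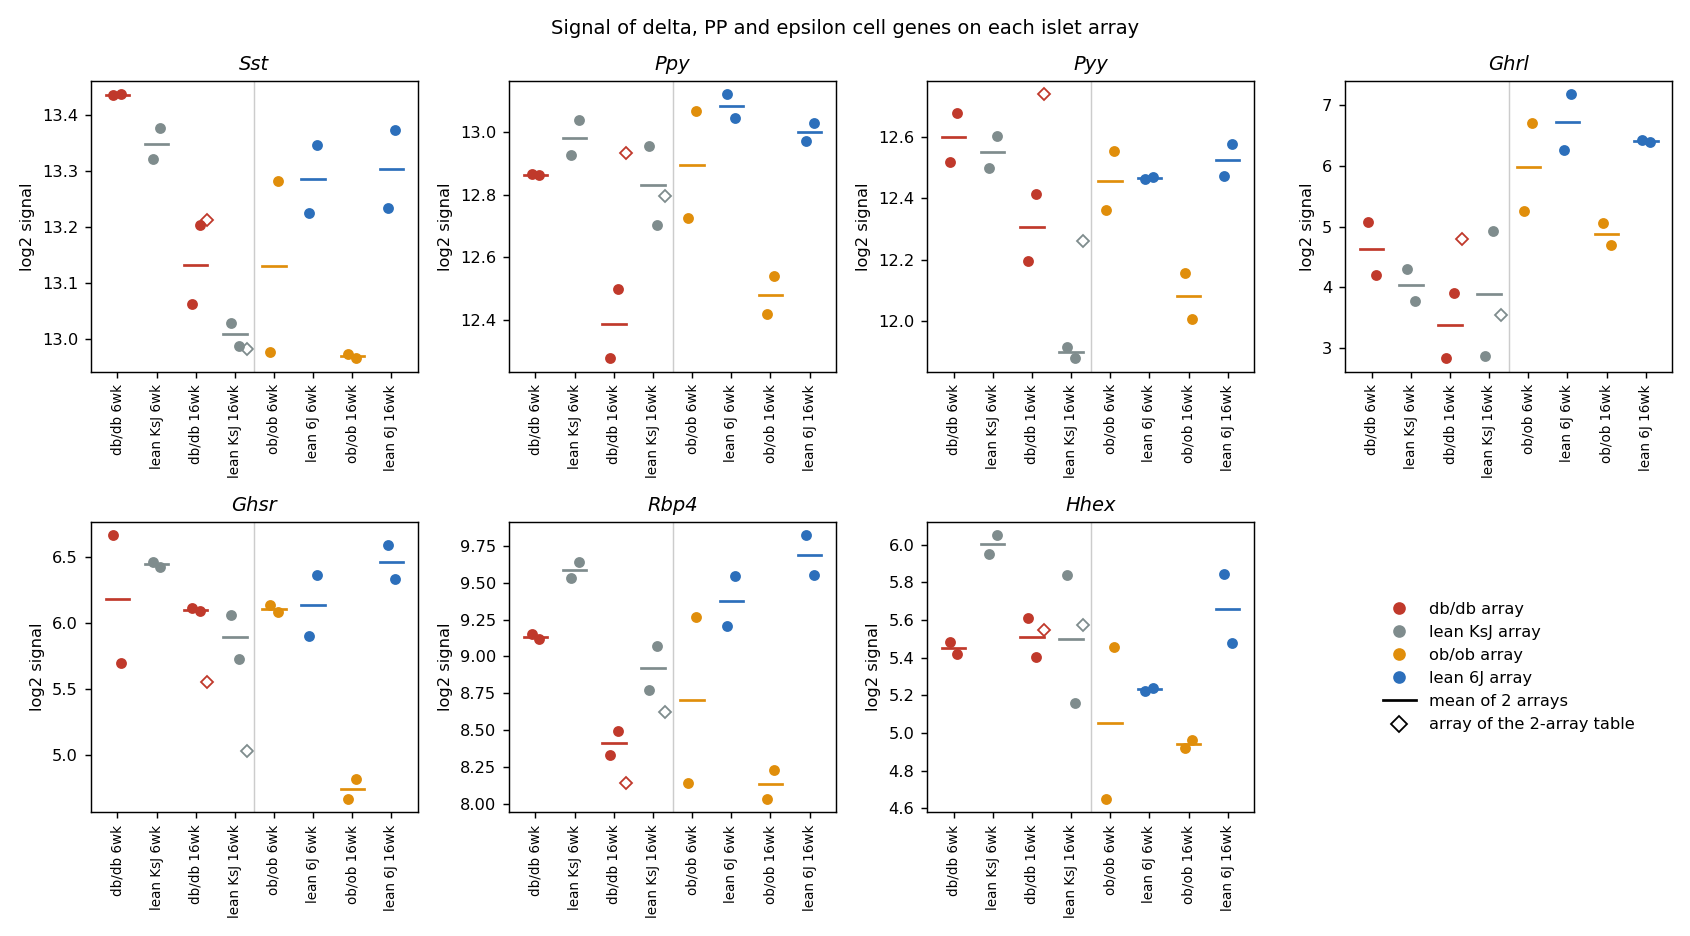
Log2 signal of each member gene on every array, by group, with circles for the 16-array table, short lines for the mean of its 2 arrays and open diamonds for the 2-array table; the vertical axis differs between panels. For all 7 genes both 16-week ob/ob arrays lie below both 16-week lean 6J arrays, and Ghrl is lower on KsJ than on 6J arrays of the lean groups.

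The order of the groups differed between genes, but 1 group recurred at the low end. The 16-week ob/ob mean was the lowest of the 8 for Sst, Ghsr, Rbp4 and Hhex and the second lowest for Ppy and Pyy. For Sst, Ghsr and Rbp4 both of its arrays also lay below every array of the next group up, and for Hhex they overlapped the next group. Ppy was lowest in 16-week db/db islets, Pyy in 16-week lean KsJ islets and Ghrl in 16-week db/db islets. At the upper end the leading group was db/db at 6 weeks for Sst and Pyy, lean 6J at 6 weeks for Ppy and Ghrl, lean 6J at 16 weeks for Ghsr and Rbp4, and lean KsJ at 6 weeks for Hhex. For Sst, Ppy and Hhex the leading group lay wholly above the next, and for Pyy, Ghrl, Ghsr and Rbp4 it overlapped the next.

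In 16-week ob/ob islets all 7 genes had lower means than in lean 6J islets, and none passed the test. On every one of the 7 both ob/ob arrays lay below both lean arrays; across all genes tested 33.3% had that pattern and 28.2% the opposite one. The 7 differences had a median of -0.72 on the log2 scale, and the median of all genes was -0.03. No member was called at an adjusted p below 0.05 by limma, and 0.0708% of all genes were; 6 of the 7 had an unadjusted p below 0.05, against 16.6% of all genes.

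The delta cell genes Ghsr and Rbp4 had the smallest p-values of the 7 by limma. Their differences were also the largest, but that of Ghrl (-1.53) was nearly the size of that of Rbp4. Ghsr, the ghrelin receptor, read 4.66 and 4.82 on the 16-week ob/ob arrays and 6.59 and 6.33 on the lean 6J arrays. The groups were 1.52 log2 units apart at their nearest arrays, and the ob/ob values are the lowest Ghsr values of the whole 16-array table. The difference was -1.72 ± 0.28 (SE; 3.30-fold lower), with a 95% confidence interval from -2.34 to -1.11 and an adjusted p of 0.0564 by limma. Rbp4, the retinol carrier, read 8.03 and 8.23 on the ob/ob arrays and 9.83 and 9.56 on the lean arrays. The difference was -1.56 ± 0.30 (SE; 2.95-fold lower), with an adjusted p of 0.0647 by limma. Among the 15526 genes these were the 15th and the 67th smallest p-values of the comparison. Calls at this edge depended on the setting. With only the compared groups in the fit the adjusted p was 0.0175 for Ghsr and 0.0206 for Rbp4 by limma, but that fit called 1293 of all genes, against 11. Without single arrays the adjusted p ran from 0.0227 to 0.332 for Ghsr and from 0.00580 to 0.385 for Rbp4 by limma, highest for both without lean 6J 16-week replicate 1.

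The remaining delta cell genes lay lower by less. Hhex, the delta cell transcription factor, read 4.92 and 4.96 in ob/ob islets and 5.84 and 5.48 in lean islets, a difference of -0.72 ± 0.27 (SE) with an adjusted p of 0.230 by limma. Sst itself read 12.97 and 12.97 in ob/ob islets and 13.23 and 13.37 in lean islets. Its difference was -0.33 ± 0.15 (SE; adjusted p = 0.308 by limma), on a signal near the top of the scale.

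The PP and epsilon hormones lay on the same side. Ppy, pancreatic polypeptide, read 12.42 and 12.54 in ob/ob islets and 12.97 and 13.03 in lean islets, a difference of -0.52 ± 0.17 (SE; adjusted p = 0.176 by limma). Pyy, peptide YY, read 12.16 and 12.01 in ob/ob islets and 12.47 and 12.58 in lean islets, a difference of -0.44 ± 0.15 (SE; adjusted p = 0.192 by limma). Ghrl, ghrelin, read 5.05 and 4.70 in ob/ob islets and 6.41 and 6.39 in lean islets. Its difference of -1.53 ± 0.66 (SE) had an interval from -2.99 to -0.07 and an adjusted p of 0.279 by limma. All groups share 1 variance per gene, and Ghrl was most variable in 16-week lean KsJ islets (SD 1.45, n = 2). In whole islets, fewer cells of a type and less RNA per cell cannot be told apart.

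Markers of other cells differed in the same arrays. The alpha cell list, genes of the glucagon cell, averaged 8.33 and 8.40 on the 16-week ob/ob arrays and 9.34 and 9.19 on the lean 6J arrays, with 5 of 6 tested members below 0. The beta cell list averaged 11.36 and 11.37 on the ob/ob arrays and 11.59 and 11.62 on the lean arrays. The acinar list averaged 10.06 and 9.63 on the ob/ob arrays and 8.87 and 8.31 on the lean arrays, with 10 of 10 tested members above 0. No gene of these 3 lists was called in this comparison, and their part in the lower delta, PP and epsilon values was not tested.

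At 6 weeks the ob/ob and lean 6J arrays overlapped for all 7 genes, where 19.9% of all genes lay wholly above and 16.8% wholly below, and none was called, as was none of the genes tested (0%; 6.15% had an unadjusted p below 0.05). All 7 differences were below 0, with a median of -0.18 beside a median of -0.00307 for all genes, although Pyy and Ghsr turned positive under each rescaling of the arrays. Rbp4 had the smallest p, with 8.14 and 9.27 in ob/ob islets against 9.21 and 9.54 in lean islets, a difference of -0.67 ± 0.30 (SE; adjusted p = 0.791 by limma). The ob/ob arrays disagreed with each other. Replicate 1 was lower than replicate 2 by 1.13 for Rbp4, 1.44 for Ghrl and 0.81 for Hhex on the log2 scale, and without replicate 1 the Rbp4 difference was -0.11.

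**Figure D2:**
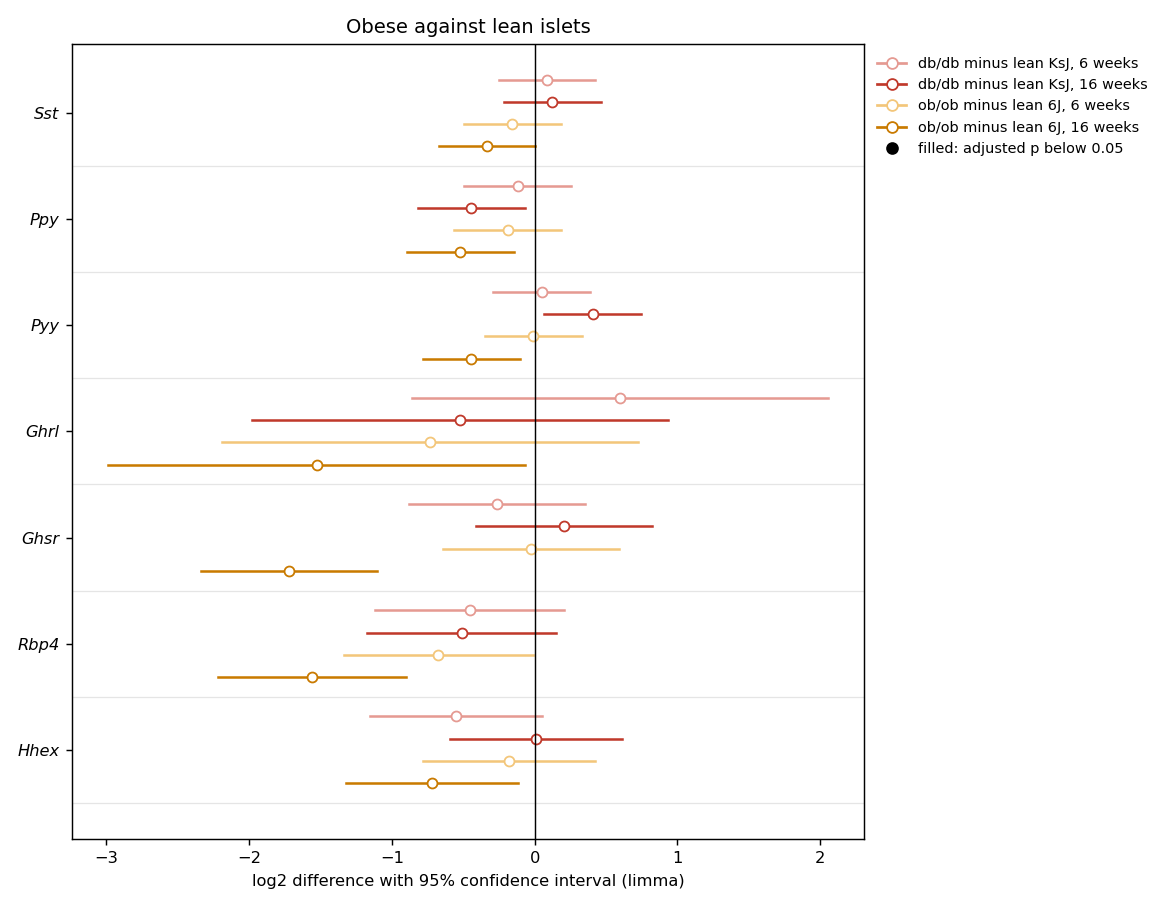
Log2 difference of obese minus lean islets for each member gene, with 95% confidence intervals from limma, in 4 comparisons. No point is filled, so no member was called, and the 16-week ob/ob intervals of Ghsr and Rbp4 lie farthest from 0.

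In 16-week db/db islets the directions of the 7 genes depended on how the arrays were scaled. On the deposited values 4 were above lean and 3 below, and after centring on the genes tested 1, Pyy, was above and 6 were below. None was called by limma, although 5.8% of all genes were (826 higher and 74 lower; 126 higher and 137 lower after centring on the genes tested), and the arrays of the 2 groups were apart for 5 members, 3 above and 2 below lean, beside 32.8% and 10.4% of all genes. Of the 7, 2 had an unadjusted p below 0.05, against 24.5% of all genes. The median of the 7 differences was 0.01, and that of all genes was 0.18. These medians bear on direction: the 16-week lean KsJ arrays had medians of 5.93 and 5.69 over the genes tested, where the other 14 arrays had 6.10 to 6.21, and centring each array on the median of the genes tested lowered every db/db difference by 0.34.

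The 2 PP-fold hormones, encoded side by side on chromosome 11, were on opposite sides of lean. Pyy read 12.20 and 12.42 in 16-week db/db islets and 11.92 and 11.88 in lean KsJ islets, with both db/db arrays above both lean arrays. The difference was 0.41 ± 0.15 (SE; adjusted p = 0.135 by limma), with 0.60 after centring on all clusters and 0.06 after centring on the genes tested. Ppy read 12.28 and 12.50 in db/db islets and 12.96 and 12.70 in lean islets, with both db/db arrays below. The difference was -0.44 ± 0.17 (SE; adjusted p = 0.138 by limma), with -0.26 and -0.79 under the same 2 centrings. Peptide YY is also a hormone of gut endocrine cells. Of 5 tested genes of the enteroendocrine list 2 were called higher on the same db/db arrays, where 5.8% of all genes were called. Cck rose by 5.42 and Gast by 3.18 (adjusted p = 0.0205 and 0.0178 by limma). Sct differed by 0.77, Gip by 0.47 and Tac1 by -0.08, with overlapping arrays and no call. Cck also differed by 3.12 in 6-week db/db islets and by 2.57 in 16-week ob/ob islets, each against lean and without a call. The list averaged 4.33 and 5.01 on the 16-week db/db arrays and 3.31 and 3.60 on the lean KsJ arrays of that age. Its part in the Pyy values was not tested. Each hormone gene passed the threshold under 1 centring only, Pyy on all clusters (adjusted p = 0.0457 by limma) and Ppy on the genes tested (adjusted p = 0.0396 by limma).

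Of the 4 delta cell genes only Rbp4 lay below lean on the deposited values, and after centring on the genes tested all 4 did. Rbp4 read 8.33 and 8.50 in 16-week db/db islets and 8.78 and 9.07 in lean KsJ islets, a difference of -0.51 ± 0.30 (SE; adjusted p = 0.321 by limma) with both db/db arrays below, and -0.85 after that centring. Sst read 13.06 and 13.20 in db/db islets and 13.03 and 12.99 in lean islets, a difference of 0.12 ± 0.15 (SE; adjusted p = 0.651 by limma) that became -0.22 after that centring. Ghsr read 6.11 and 6.09 in db/db islets and 6.07 and 5.73 in lean islets, a difference of 0.20 ± 0.28 (SE; adjusted p = 0.691 by limma) that became -0.14 after that centring and -0.08 after quantile normalization. Hhex differed by 0.01 ± 0.27 (SE; adjusted p = 0.987 by limma), with overlapping arrays, and became -0.33 after that centring, -0.18 after quantile normalization and -0.33 without the acinar-rich lean array. None of these values was called.

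Ghrl could hardly be measured in this strain at 16 weeks. It read 2.84 and 3.92 in db/db islets and 2.87 and 4.93 in lean KsJ islets, so that 1 array of each group lay below the filter value of 2.99. The groups overlapped, and the difference of -0.52 ± 0.66 (SE; adjusted p = 0.661 by limma) turned positive without the acinar-rich lean array, at 0.50.

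At 6 weeks no member was called in db/db islets, and 0.0258% of all genes were; 0 members and 8.52% of all genes had an unadjusted p below 0.05. The arrays were apart for 4 members, with Sst above lean and Ppy, Rbp4 and Hhex below. Hhex read 5.49 and 5.42 in db/db islets and 5.95 and 6.05 in lean KsJ islets, a difference of -0.55 ± 0.27 (SE; adjusted p = 0.624 by limma). Rbp4 read 9.15 and 9.12 in db/db islets and 9.54 and 9.64 in lean islets, a difference of -0.45 ± 0.30 (SE; adjusted p = 0.703 by limma). Arrays all above or all below were found for 21.9% and 27.9% of all genes.

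The difference between the models was tested as the db/db effect minus the ob/ob effect. At 16 weeks it was above 0 for all 7 genes, with a median of 0.85 beside 0.25 for all genes, and Ppy changed sign, to -0.32 after centring on the genes tested and to -0.05 without the acinar-rich and the enterocyte-rich lean array. No member was called by limma, and 0.0129% of all genes were. Ghsr had the largest difference among the 7, 1.93 ± 0.40 (SE; adjusted p = 0.143 by limma), followed by Rbp4 at 1.05 ± 0.42 (adjusted p = 0.287) and Ghrl, whose difference was not called either (SE 0.94, adjusted p = 0.582). Pyy differed by 0.85 ± 0.22 (SE; adjusted p = 0.167 by limma). Without single arrays the difference ran from 1.76 to 2.09 for Ghsr and from 0.74 to 0.96 for Pyy. Whether these 2 genes were called depended on the array left out. The share of all genes called in those fits is not given here. At 6 weeks no difference between the models was called, for members or for any gene (0%; 2.25% had an unadjusted p below 0.05).

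The only member called in any of the 12 comparisons was Pyy, between the lean strains at 16 weeks. It read 11.92 and 11.88 in lean KsJ islets and 12.47 and 12.58 in lean 6J islets. The difference was -0.63 ± 0.15 (SE; 1.54-fold lower; adjusted p = 0.0478 by limma), and 4.12% of all genes were called (73 higher and 566 lower; 122 higher and 84 lower after centring on the genes tested). An unadjusted p below 0.05 was found for 3 of the 7 members and 29.5% of all genes. For 6 of the 7 members both KsJ arrays lay below both 6J arrays, beside 44.3% of all genes, and the median of all genes was -0.25. The Pyy call was lost in 8 of 14 other settings, among them quantile normalization (adjusted p = 0.0971 by limma) and the fit without the acinar-rich and the enterocyte-rich lean array (adjusted p = 0.179), and centring on the genes tested gave -0.26 (adjusted p = 0.340). Leaving out single arrays gave adjusted p-values between 0.0162 and 0.234, and values above the threshold came without either 16-week lean 6J array or without lean KsJ replicate 2, among others. At 6 weeks, where Pyy read 12.50 and 12.60 in lean KsJ islets and 12.46 and 12.47 in lean 6J islets, the difference was 0.08 ± 0.15 (SE; adjusted p = 0.995 by limma).

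Ghrelin had the largest strain difference of the 7. Over the 8 db/db and lean KsJ arrays Ghrl had a lowest value of 2.84, a median of 4.06 and a highest value of 5.07, and over the 8 ob/ob and lean 6J arrays it had a lowest value of 4.70, a median of 6.32 and a highest value of 7.17. Both ob/ob arrays of 16 weeks fell within the KsJ range, and the lean groups did not overlap at either age; at 6 weeks 17.8% of all genes lay wholly below and 26.2% wholly above. At 6 weeks it read 4.30 and 3.78 in lean KsJ islets and 6.25 and 7.17 in lean 6J islets, a difference of -2.67 ± 0.66 (SE; 6.37-fold lower; adjusted p = 0.319 by limma), and 0.258% of all genes were called. At that age 2 members and 6.65% of all genes had an unadjusted p below 0.05. At 16 weeks it read 2.87 and 4.93 in lean KsJ islets and 6.41 and 6.39 in lean 6J islets, a difference of -2.50 ± 0.66 (SE; adjusted p = 0.0562 by limma), with 1 of the 2 KsJ arrays below the filter value. The difference was negative in every setting run, and at 16 weeks it passed the threshold in 6 of 14 other settings, such as the fit without the acinar-rich and the enterocyte-rich lean array (-3.53, adjusted p = 0.0458 by limma). Single arrays moved it widely: it was -1.47 without lean KsJ replicate 1 and -3.53 without replicate 2, and adjusted p-values without single arrays ran from 0.0487 to 0.230 by limma. Hhex was apart the other way at 6 weeks, with 5.95 and 6.05 in lean KsJ islets and 5.22 and 5.24 in lean 6J islets, a difference of 0.77 ± 0.27 (SE; adjusted p = 0.604 by limma).

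Between 6 and 16 weeks no member was called within any genotype. In ob/ob islets all 7 differences were below 0 and the arrays of 5 members were wholly below, beside 19.4% of all genes (16.9% wholly above), of which none was called (0%; 3.9% had an unadjusted p below 0.05). Ghsr led them, with 4.66 and 4.82 at 16 weeks against 6.14 and 6.08 at 6 weeks. The difference was -1.37 ± 0.28 (SE; adjusted p = 0.974 by limma), and its unadjusted p, 0.000467, was the 6th smallest among all genes by limma. In lean 6J islets Ghsr differed by 0.33 ± 0.28 over the same ages (SE) and was not called by limma, and 5 of the 7 members were above 0.

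In ageing KsJ islets 6 of the 7 members had lower means in db/db islets, beside 52.1% of all genes. In lean KsJ islets all 7 did, beside 71.6% of all genes. In db/db islets 5 members had both 16-week arrays below both 6-week arrays, beside 21.2% of all genes (18.2% wholly above), and 0.0644% of all genes were called. An unadjusted p below 0.05 was found for 2 members and 7.61% of all genes. Rbp4 differed by -0.72 ± 0.30 (SE; adjusted p = 0.610 by limma) and Ppy by -0.48 ± 0.17 (adjusted p = 0.518). In lean KsJ islets 5 members were wholly below, beside 44.1% of all genes, and no gene was called (0%; 26.3% had an unadjusted p below 0.05). Pyy there read 11.92 and 11.88 at 16 weeks against 12.50 and 12.60 at 6 weeks, a difference of -0.65 ± 0.15 (SE; adjusted p = 0.0853 by limma). The median of all genes in this comparison was -0.26, and after centring on the genes tested Pyy differed by -0.29, whereas Sst, Ppy and Ghrl turned positive.

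**Figure D3:**
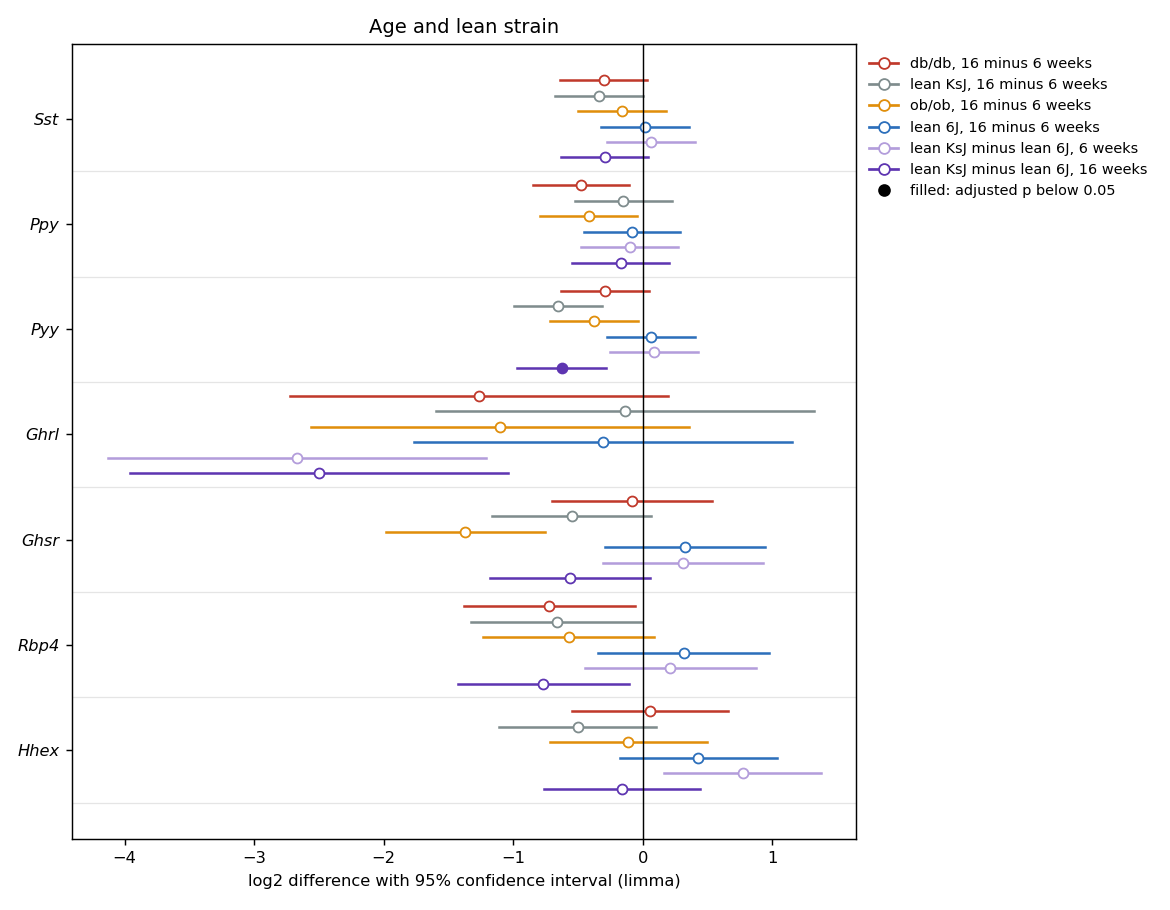
Log2 difference between ages within each genotype (16 minus 6 weeks) and between the lean strains (KsJ minus 6J) for each member gene, with 95% confidence intervals from limma. The 1 filled point is Pyy in the lean strain comparison of 16 weeks, and both Ghrl strain differences lie near -2.5.

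The 2-array table repeats the 16-week db/db comparison on a related array design, with 1 array per group and therefore no test. Pyy read 12.74 on the db/db array and 12.26 on the lean KsJ array, a difference of 0.48, close to the 0.41 of the larger table. Rbp4 read 8.14 on the db/db array and 8.62 on the lean array, a difference of -0.48 beside -0.51. Ppy went the other way, with 12.93 on the db/db array and 12.80 on the lean array, a difference of 0.14 beside -0.44. Sst differed by 0.23, Ghsr by 0.52 and Hhex by -0.03, and Ghrl, at 4.80 on the db/db array and 3.55 on the lean array, differed by 1.25 beside -0.52. In all, 5 of the 7 differences were above 0, with a median of 0.23, as were 8792 of 15526 genes, with a median of 0.09. Enterocyte genes averaged 9.64 on the db/db array and 4.41 on the lean array, and acinar genes averaged 11.36 and 12.34 on the same arrays.

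**Figure D4:**
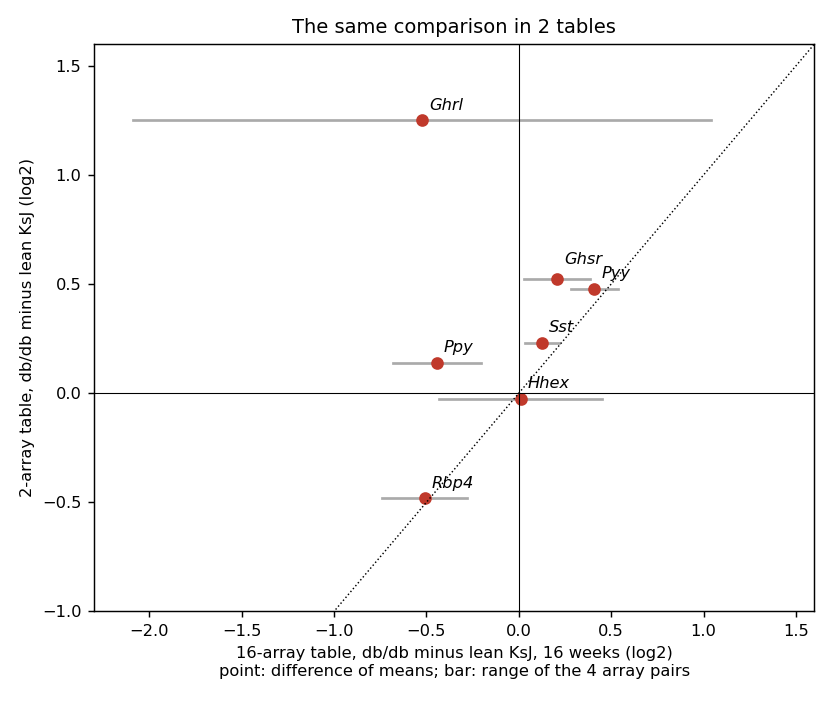
Difference of db/db minus lean KsJ islets at 16 weeks for each member gene, in the 16-array table (horizontal, with the range of its 4 array pairs) and in the 2-array table (vertical); the dotted line marks equal differences. Pyy and Rbp4 lie near the line, and Ppy and Ghrl have opposite signs in the tables.

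The signalling partners of these peptides were read from lists of receptors, enzymes and related genes. These lists and their counts also hold members. Sst is among the somatostatin genes, Ppy and Pyy are among the PP-fold genes, and Ghrl and Ghsr are among the ghrelin genes. Hhex is among the islet lineage transcription factors that follow. Among the somatostatin genes 0 of 6 tested were called in any obese against lean comparison. The somatostatin receptor gene Sstr2 read 4.38 and 4.95 in 16-week ob/ob islets and 6.34 and 6.15 in lean 6J islets, a difference of -1.58 ± 0.64 (SE; adjusted p = 0.255 by limma). It had an outlying 7.79 on the acinar-rich lean KsJ array of 16 weeks. Among ghrelin genes 0 of 3 tested were called, and Mboat4, the enzyme that acylates ghrelin, and Leap2, a peptide that antagonises its receptor, were below the filter.

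Among PP-fold genes 1 of 6 tested was called, Dpp4, the peptidase that trims peptide YY and neuropeptide Y, which rose in 16-week db/db islets, where 5.8% of all genes were called. It read 8.97 and 8.95 there, against 8.10 and 7.07 in lean KsJ islets, a difference of 1.37 ± 0.29 (SE; adjusted p = 0.0283 by limma). Dpp4 is also made by enterocytes. Their genes averaged 6.69 and 9.29 on these db/db arrays and 4.32 and 6.15 on the lean KsJ arrays, in the same order. Their part in the rise of Dpp4 was not tested. Of the other PP-fold genes, Npy, which encodes neuropeptide Y, read 4.64 and 6.08 in 16-week ob/ob islets and 7.68 and 7.85 in lean 6J islets, a difference of -2.40 ± 0.83 (SE; adjusted p = 0.191 by limma). The receptor gene Npy1r differed by 0.85 ± 0.29 in 16-week db/db islets (SE; adjusted p = 0.107 by limma).

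Among islet lineage transcription factors 2 of 14 tested rose in 16-week db/db islets, where 5.8% of all genes were called, and none was called in the other 3 comparisons. Neurog3, the factor that starts the endocrine programme in the embryo, read 6.97 and 8.34 in db/db islets and 5.61 and 5.65 in lean KsJ islets, a difference of 2.03 ± 0.41 (SE; adjusted p = 0.0248 by limma). It was highest on the enterocyte-rich replicate 2. At 6 weeks both ob/ob arrays lay above both lean 6J arrays for Neurog3 (difference 0.36), and enterocyte genes averaged 11.02 on lean 6J replicate 2. The part of gut cells in the rise of Neurog3 in 16-week db/db islets was not tested. Etv1, also on the PP marker list, read 10.31 and 10.23 in db/db islets and 9.52 and 8.74 in lean islets, a difference of 1.14 ± 0.28 (SE; adjusted p = 0.0413 by limma). The 16-week ob/ob differences of the 14 had a median of -0.30 and 12 of 14 were below 0, where the median of all genes was -0.03 and 52.5% were below 0. Foxa2, a forkhead factor of the endoderm, had the smallest p among them, at -0.49 ± 0.17 (SE; adjusted p = 0.190 by limma).

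Of the genes for peptide processing, 2 of 5 tested rose in 16-week db/db islets, beside the 5.8% of all genes called there (826 of the 900 higher): Pam, which amidates peptides such as pancreatic polypeptide, by 1.15 ± 0.29 (SE; adjusted p = 0.0447 by limma), and Scg5, a chaperone of a prohormone convertase, by 1.23 ± 0.28 (adjusted p = 0.0315). Of the other PP cell markers, 2 of 10 rose there, beside the same 5.8%: Etv1 and Fxyd6, a regulator of the sodium pump, by 1.05 ± 0.17 (SE; adjusted p = 0.0161 by limma). No gene was called among the 6 other delta cell markers tested or the 3 other epsilon cell markers. The delta marker Edn3, an endothelin, read 4.99 and 5.01 in 16-week ob/ob islets and 6.09 and 6.55 in lean 6J islets, a difference of -1.32 ± 0.28 (SE; adjusted p = 0.0760 by limma). Of the 6 delta markers, 1 was above 0 and 5 below in that comparison. The 10 PP markers were split there, 5 above 0 and 5 below, with none called; the smallest p was that of Sertm1, which differed by -1.28 ± 0.33 (SE; adjusted p = 0.115 by limma).

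The calls of these list genes in db/db islets depended on the scaling and on the doubted arrays, while their sign did not. With quantile normalization Fxyd6 remained called (adjusted p = 0.0344 by limma) and Dpp4, Neurog3, Etv1, Pam and Scg5 did not, with adjusted p-values between 0.0533 and 0.124. After centring on the genes tested none of the 6 was called, with adjusted p-values between 0.0566 and 0.114 by limma. Without the acinar-rich and the enterocyte-rich lean array only Fxyd6 was called (adjusted p = 0.0449 by limma), and without db/db 16-week replicate 2 as well none was, with adjusted p-values between 0.0895 and 0.257.

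Likeness between genes was measured as the Pearson correlation over the 16 arrays, which share groups, strain and tissue make-up, so the values are descriptions. Sst and Pyy resembled each other (r = 0.87), each ranking within the 10 most similar genes of the other. Rbp4 resembled Ppy (r = 0.82) and Sst (r = 0.76), whereas Ppy and Pyy, the neighbours, had an r of 0.51. Ghrl had the weakest relations with the other members, between -0.31 for Hhex and 0.52 for Ppy. The genes most like each member were Efnb3 for Sst (r = 0.91), Hspa12a for Ppy (0.96), Cbarp for Pyy (0.93), Cluh for Ghrl (0.92), Usp40 for Ghsr (0.85), Nnat for Rbp4 (0.96) and Bclaf1 for Hhex (0.91).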

How the data were processed

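The authors deposited log2 signals per transcript cluster of Affymetrix Mouse Gene ST arrays, in a table of 16 arrays and a table of 2. Per the submitters' processing notes MAS5, RMA and Partek were used; their versions, their roles and the order of steps are not stated. Each table held 41034 clusters, of which the platform annotation gave 1 gene for 23521, several for 1814 and none for 15699. Symbols were updated through the GRCm38.p6 gene table, and clusters of several or no genes were not used. A gene with several clusters was represented by its brightest one, which left 22180 genes, and a filter at the 30th percentile of gene means (2.99 on the log2 scale) removed the dimmest.

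Group means were estimated with limma 3.58.1 (R 4.3.3) from all 16 arrays at once, which leaves 8 residual degrees of freedom, and eBayes moderated the variances. Two-sided p-values received the Benjamini-Hochberg adjustment over 15526 genes, with calls made below 0.05; intervals cover 95%. The number of arrays, 2 per group, limits the precision. The 2-array table was not tested, because no label or header tells whether the tables were normalized together. The member genes and the lists were chosen with earlier results of these data known. The text names all members, each list gene called in an obese against lean comparison, and a few others per list by smallest p; Foxa2, Npy1r and the values of Uty were chosen after they were seen. Alternatives were other filters, quantile normalization, centring on the median of all clusters, array weights, trend and robust variances, averaging a gene's clusters, the compared groups alone, marker or Xist levels as covariates, joined tables and arrays left out. Centring on the median of the genes tested was chosen after seeing the data. Python 3.11.15 with matplotlib 3.10.9 made the figures.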

Additional observations from a re-analysis of the deposited data

Results flagged for a closer look

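At 16 weeks both db/db arrays lay above both lean KsJ arrays, and both ob/ob arrays below both lean 6J arrays, for 3 genes. Across all genes tested, 32.8% lay wholly above lean in db/db islets and 33.3% wholly below lean in ob/ob islets. The share with both patterns was not counted. The db/db effect minus the ob/ob effect was 1.93 for Ghsr (adjusted p = 0.143 by limma), 0.85 for Pyy (adjusted p = 0.167) and 0.46 for Sst (adjusted p = 0.336) on the log2 scale, so none of the 3 passed the test of the difference. After centring on the genes tested the difference was 1.53 for Ghsr, 0.46 for Pyy and 0.065 for Sst, and the db/db side of the pattern turned negative for Sst and Ghsr.

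Between 6 and 16 weeks, 3 genes had every lean KsJ array of 16 weeks below those of 6 weeks and every lean 6J array of 16 weeks above those of 6 weeks. Across all genes tested, 44.1% lay wholly below in lean KsJ ageing and 21.9% wholly above in lean 6J ageing. The share with both patterns was not counted. In lean KsJ ageing the median of all genes was -0.26, so part of these values may be array scale. The lean KsJ age change minus the lean 6J age change was -0.71 for Pyy, -0.98 for Rbp4 and -0.93 for Hhex. These 3 differences were not tested.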

How the results depend on the processing

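Of 1148 values of member genes recomputed under other settings than leaving out single arrays, 1075 kept their direction and side of the threshold, 26 came to be called, 8 lost a call and 39 changed sign. The causes were not tested, except that centring shifts every gene alike. With 2 arrays per group, single arrays decide many values. No paired analysis was possible because the labels carry no replicate numbers, and those used here only name arrays.

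Number of members called, 16-week db/db against lean KsJ (0): 1 after centring on all clusters, 1 after centring on the genes tested and 1 with both tables joined. For 16-week ob/ob against lean 6J (0) it was 1 with the 50th percentile filter, 1 without the acinar-rich and the enterocyte-rich lean array, 1 without all 3 arrays rich in such genes, 2 with trend and robust variances, 7 with array weights and 3 with only the compared groups. Array weights and the compared groups alone also called far more of all genes in that ob/ob comparison, with the counts given below. All-gene counts for its other settings with a member called are not given here. For the db/db effect minus the ob/ob effect at 16 weeks (0) the number of members called was 1 with joined tables. Between lean strains at 16 weeks (1) it was 0 without the filter, with quantile normalization, centring on the genes tested, array weights, the compared groups alone or covariates, and 2 with the 50th percentile filter, centring on all clusters, trend and robust variances or joined tables. It was 1 without the 2 arrays, then Ghrl and not Pyy. At 6 weeks it was 1 with array weights (0). Without single arrays the count ran from 0 to 2 in these 16-week ob/ob, model-difference and strain comparisons and in lean KsJ ageing.

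Sign changes in 16-week db/db against lean KsJ islets were as follows. Centring on the genes tested gave -0.22 for Sst, -0.14 for Ghsr and -0.33 for Hhex, and quantile normalization gave -0.078 for Ghsr and -0.18 for Hhex. Joined tables gave 0.067 for Ghrl and -0.00263 for Hhex. Leaving out the 2 lean arrays gave 0.50 for Ghrl and -0.33 for Hhex, and leaving out 3 gave -0.23 for Hhex. In 6-week ob/ob against lean 6J islets, Pyy was 0.027 with quantile normalization, 0.039 and 0.055 with the centrings on all clusters and on the genes tested, and 0.011 with covariates. Ghsr there was 0.037, 0.020, 0.037 and 0.28 in the same order, and 0.21 without the 2 or the 3 arrays. The model difference of Ppy at 16 weeks was -0.32 after centring on the genes tested, -0.050 without 2 arrays and -0.16 without 3, and that of Rbp4 at 6 weeks was -0.012 with covariates. Across ages, Ghsr in db/db islets was 0.037 with covariates and Hhex in ob/ob islets 0.068 with Xist as covariate. In lean KsJ ageing, centring on the genes tested gave 0.024 for Sst, 0.21 for Ppy and 0.22 for Ghrl. In lean 6J ageing Ghrl was 0.59 with covariates and 0.15 without the 2 or the 3 arrays. Between lean strains at 16 weeks, centring on the genes tested gave 0.068 for Sst, 0.19 for Ppy and 0.20 for Hhex, and Hhex was 0.086 with quantile normalization, 0.34 with covariates and 0.18 without the 2 or the 3 arrays.

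Without single arrays, these values crossed 0. In 16-week db/db against lean islets Ghrl ran from -1.55 to 0.50 and Hhex from -0.33 to 0.35. At 6 weeks Pyy ran from -0.032 to 0.13 and Ghsr from -0.75 to 0.22. In 6-week ob/ob against lean islets Pyy ran from -0.10 to 0.088, Ghsr from -0.26 to 0.21 and Hhex from -0.58 to 0.22. The 16-week model difference ran from -0.050 to 0.20 for Ppy and from -0.024 to 2.03 for Ghrl. The 6-week one ran from -0.10 to 0.24 for Ppy, -0.040 to 0.15 for Pyy, -0.73 to 0.25 for Ghsr, -0.35 to 0.78 for Rbp4 and -0.77 to 0.033 for Hhex. Ageing ran from -0.57 to 0.41 for Ghsr and -0.047 to 0.16 for Hhex in db/db islets, -0.52 to 0.29 for Hhex in ob/ob islets, -1.17 to 0.89 for Ghrl in lean KsJ islets, and -0.052 to 0.087 for Sst and -0.77 to 0.15 for Ghrl in lean 6J islets. The 16-week lean strain difference of Hhex ran from -0.50 to 0.18.

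Counts of all genes called moved as well. For 16-week db/db islets the count was 900, with 283 after quantile normalization, 2011 and 263 after the centrings on all clusters and on the genes tested, 0 with array weights, 6 with the compared groups alone and 2084 with joined tables. For 16-week ob/ob islets it was 11, with 0 after quantile normalization, 2969 with array weights and 1293 with the compared groups alone. Between lean strains at 16 weeks it was 639, with 148 after quantile normalization, 1979 and 206 after the 2 centrings, 2 with array weights, 0 with the compared groups alone and 2562 with the Xist covariate.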

Other observations

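Between the lean strains at 16 weeks, where 4.12% of all genes were called, other genes of the fixed lists differed as well. Onecut1, a transcription factor of the early pancreas, was higher in lean KsJ than in lean 6J islets by 2.94 on the log2 scale (adjusted p = 0.0136 by limma), and it stayed called under quantile normalization and both centrings, but not without the 3 arrays rich in acinar or enterocyte genes (adjusted p = 0.0560 by limma). Dpp4, the peptidase that trims peptide YY, differed by -1.76 (adjusted p = 0.0158 by limma) and was called under the same 3 scalings. The endocrine transcription factors Insm1 (-0.89, adjusted p = 0.0342) and Rfx3 (-0.97, adjusted p = 0.0346), the calcium-sensing receptor gene Casr (-1.12, adjusted p = 0.0402) and Fxyd6 (-1.10, adjusted p = 0.0141) were lower in lean KsJ islets by limma. After centring on the genes tested these 4 were not called, with adjusted p-values of 0.133, 0.115, 0.130 and 0.0847. Irx1, an alpha cell transcription factor, was lower in lean KsJ islets by limma as well (-1.62, adjusted p = 0.0399). Whether the Irx1 call holds under the other scalings was not examined.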
